A study of Homo sapiens with 8 samples.

Results

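The 10 genes described here, SREBF1, ACLY, ACSS2, ME1, ACACA, FASN, ELOVL6, SCD, FADS1 and FADS2, build fatty acids from small precursors and place double bonds in them. They were chosen by name, as the rows of these symbols among the 15767 rows of the deposited raw count table, and all 10 were found there and in the FPKM table. This choice, like that of the lists below, was made with earlier results of these data known. RNA-seq was performed on HuH7 cells, an established line derived from a human hepatocellular carcinoma, of wildtype genotype according to the labels. All cells were held at 1% oxygen in DMEM without glucose for 6 h and then returned to normoxia (oxygen-glucose deprivation and reperfusion, OGD/R), and during the 6 h of reoxygenation the medium contained DMSO (libraries titled HIR, here the DMSO group, n = 4) or the ginsenoside Rk2 at 20 µM (libraries titled HIR_RK, here the Rk2 group, n = 4). Every library therefore came from cells that had passed through OGD/R, and the values compare Rk2 with its vehicle, not injured with uninjured cells.

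Cells make fatty acids from citrate, which is exported from mitochondria and cleaved to cytosolic acetyl-CoA; acetyl-CoA is carboxylated to malonyl-CoA, condensed into palmitate with NADPH as the reductant, and then elongated and desaturated. The liver is a main site of this pathway, and its genes are known targets of the transcription factor SREBP-1, the product of SREBF1, while the related SREBP-2 mainly drives cholesterol synthesis. The question put to the data was whether the transcripts of this pathway differed between cells given Rk2 and cells given DMSO after OGD/R.

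SCD, FADS1 and FADS2, the desaturases, showed the 3 largest log2 fold changes among the 10 genes, and the sequence ahead of their transcription start sites is shown for that reason. Each sequence comprises the 250 bases before a RefSeq start (GRCh38.p14), is written 5′ to 3′ on the strand of the gene, and carries in capitals each CCAAT box (spelled like its name) and each GC box (GGGCGG) found on either strand.
SCD, chr10:100346983-100347232, plus strand: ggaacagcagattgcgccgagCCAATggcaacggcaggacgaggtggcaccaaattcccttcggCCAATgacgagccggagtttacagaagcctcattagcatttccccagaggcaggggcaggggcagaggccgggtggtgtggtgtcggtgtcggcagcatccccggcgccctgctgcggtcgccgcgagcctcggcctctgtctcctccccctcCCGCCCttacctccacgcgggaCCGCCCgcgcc
FADS1, chr11:61817004-61817253, minus strand: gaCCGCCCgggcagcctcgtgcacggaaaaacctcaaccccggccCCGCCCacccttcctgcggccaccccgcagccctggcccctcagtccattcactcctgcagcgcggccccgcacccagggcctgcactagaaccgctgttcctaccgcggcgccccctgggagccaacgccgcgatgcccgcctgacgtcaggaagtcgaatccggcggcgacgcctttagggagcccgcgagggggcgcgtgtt
FADS2, chr11:61816154-61816403, plus strand: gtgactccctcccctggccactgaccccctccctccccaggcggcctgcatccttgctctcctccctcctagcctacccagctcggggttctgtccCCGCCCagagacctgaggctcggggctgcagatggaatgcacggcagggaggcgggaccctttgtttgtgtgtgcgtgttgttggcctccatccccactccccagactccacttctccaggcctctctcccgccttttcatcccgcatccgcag
The SCD window held 2 CCAAT and 2 GGGCGG matches, the FADS1 window 2 GGGCGG matches and the FADS2 window shown 1 GGGCGG match. A second RefSeq start of FADS2, at 61816203, has a window with 0 matches of either motif. FADS1 and FADS2 lie on opposite strands of chromosome 11, and the starts behind the windows shown are 599 bases apart. The start of FADS1, on the minus strand, has the higher coordinate, so transcripts from these starts run across each other. Each of these windows lies inside the annotated span of the other gene. RefSeq windows were matched for 9 of the 10 genes, 14 windows in all, since some genes have more than 1 start. The windows of ACLY overlap, so the same matches count in both, and the windows of FADS2 overlap as well. GGGCGG occurred in 12 of these 14 windows and in 42.6% of 35116 RefSeq windows of the same length, and CCAAT occurred in 6 of the 14 and in 32.0% of all windows. The E-box CACGTG and the sterol element TCACCCCAC, together with its core spelling CACCCCAC and the looser spelling TCACNCCAC, had no match on either strand of the 14 windows, and they occurred in 6.34%, 0.362%, 2.43% and 0.883% of all windows, respectively. The shorter sterol spelling lies inside the longer one, so these shares are not additive, and a match or its lack describes letters in the window only.

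Library totals ranged from 18428485 to 21447045 counts in the DMSO group and from 16374082 to 30310479 in the Rk2 group, and the 10 genes together took 0.313% of all counts. Their raw counts per library ran from 171 (ACSS2) to 39598 (SCD). Markers of hepatocytes (10 of 10 tested) summed to 11488 to 12518 CPM in the DMSO group and 12506 to 12959 CPM in the Rk2 group, and ALB and AFP were among those present. Endothelial markers summed to 8.29 to 9.88 CPM in the DMSO group and 9.10 to 11.0 CPM in the Rk2 group, with CDH5, KDR, VWF and TEK having no row in the count table used. Fibroblast markers summed to 19.2 to 23.4 and 19.1 to 22.4 CPM, with DCN having no row, and 3 of 5 leukocyte markers were tested, with sums of 652 to 727 and 639 to 735 CPM that were mostly LYZ, and PTPRC having no row. Replicate 1 of the DMSO group stood apart from the other 3 DMSO libraries in several of the 10 genes and received the lowest weight of all 8 libraries (0.353) when libraries were weighted by their quality, so results are also given without it. The labels number the replicates without stating that they were separate cultures, so the p-values measure only the spread between these libraries. Bulk RNA cannot tell fewer expressing cells from less RNA per cell.

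Of the 10 genes, 5 rose with Rk2 (SCD, FADS1, FADS2, ME1 and ELOVL6), 0 fell and 5 did not pass the test. The test was edgeR's quasi-likelihood test across all 12928 genes with enough counts, with a Benjamini-Hochberg adjusted p below 0.05 as the threshold, and in it 11.0% of all tested genes were called higher with Rk2 and 7.23% lower, 18.2% in either direction. The lowest Rk2 library lay above the highest DMSO library in 7 of the 10 genes, while this held for 15.4% of all tested genes, and groups that did not overlap in either direction were found in 28.2%. The changes were small, since the median log2 fold change (log2FC) of the 10 genes was 0.21 against -0.002 for all tested genes, and 0 of the 10 exceeded 1.5 fold, which 2.46% of all tested genes did in the upward and 0.580% in the downward direction. The count of 5 became 4 without DMSO replicate 1, and it was 3 without Rk2 replicate 2, 3 or 4, each left out in turn. Across all genes the fold change rose with gene length (rho = 0.388), and the background was not matched to the 10 genes in length. After a correction for gene length the same 5 were called, with SCD at 0.17 and ELOVL6 at 0.27, while FASN went from 0.19 to 0.030. Fold changes throughout are Rk2 over DMSO on the log2 scale, and levels are TMM-scaled CPM (counts divided by library size and put on a common scale), which can be compared between libraries for 1 gene but not between genes of different length.

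**Figure D1:**
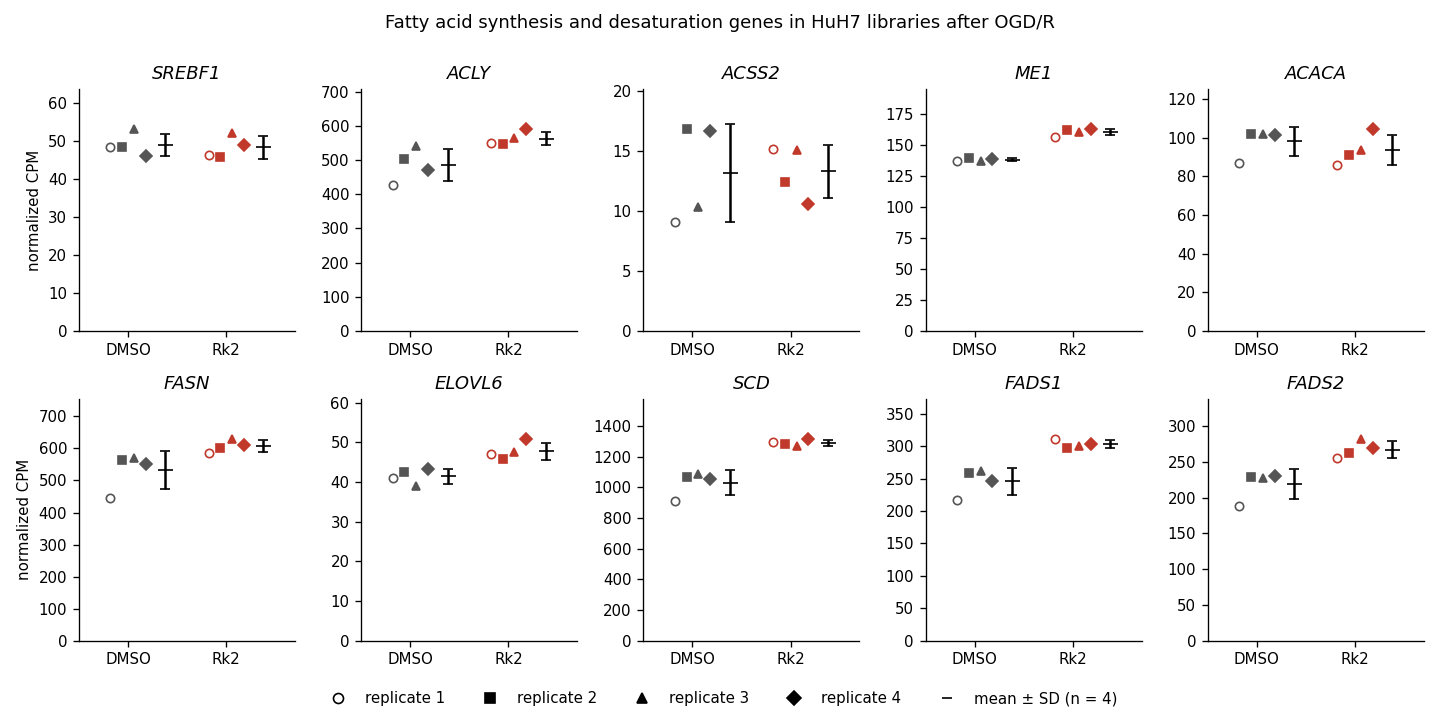
Normalized CPM (vertical axes, each starting at 0) of the 10 genes in the DMSO group (grey) and the Rk2 group (red), with a point for each library, its shape giving the replicate number, and a bar for the mean ± SD (n = 4). The Rk2 points lie above every DMSO point in 7 panels. DMSO replicate 1 (open grey circle) is the lowest point of its group for SCD, FADS1, FADS2, FASN, ACLY, ACACA, ME1 and ACSS2.

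SREBF1 (chromosome 17, 17810399 to 17837002, minus strand in GENCODE v29 on GRCh38), which encodes the transcription factor SREBP-1, showed no detectable difference. Its CPM was 48.5, 48.5, 53.1 and 46.0 in DMSO replicates 1 to 4 and 46.3, 45.9, 52.2 and 49.0 in Rk2 replicates 1 to 4. The groups overlapped, and the highest library of each group was replicate 3. The mean was 49.0 ± 2.94 in the DMSO group and 48.3 ± 2.91 in the Rk2 group (SD, n = 4 each), a log2FC of -0.021 (SE 0.0636, edgeR adjusted p = 0.851), and the 95% confidence interval of the fold ran from 0.891 to 1.09. Transcript level does not report the cleavage of the SREBP-1 precursor, which was not measured here. In the annotation 6.92% of the exon bases of SREBF1 are shared with RAI1 on the opposite strand, and since no strand setting is stated for the counting, reads in these bases cannot be assigned with certainty. Across the 8 libraries the log2 CPM of SREBF1 moved most closely with LCMT1 (Pearson's r = 0.980), DTNA (0.967) and TATDN2 (0.908). This is a description over 8 libraries of unequal depth and shared preparation.

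The genes that supply precursors and NADPH did not move as one. ME1 (chromosome 6, 83210389 to 83431071, minus strand), encoding the cytosolic malic enzyme that yields NADPH, had 137, 139.8, 138 and 139 CPM in the DMSO libraries and 157, 162, 161 and 163 CPM in the Rk2 libraries. Both groups were tight and lay well apart. The mean was 138 ± 1.29 CPM with DMSO and 161 ± 2.54 CPM with Rk2 (SD, n = 4 each), and the log2FC was 0.22 (SE 0.0310, edgeR adjusted p = 0.00364) or 1.16-fold with a 95% interval of 1.11 to 1.22. Without DMSO replicate 1 the change was 0.21 (adjusted p = 0.00453), and the call was lost in 1 of 20 alternative settings, a joint correction for gene length and GC content (0.040, adjusted p = 0.417).

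ACLY (chromosome 17, 41866908 to 41930542, minus strand), the ATP citrate lyase that cleaves citrate to acetyl-CoA, had 427, 502, 540.3 and 471 CPM in the DMSO libraries and 549.6, 547, 563 and 589 CPM in the Rk2 libraries. All Rk2 libraries were above all DMSO libraries, but the DMSO libraries were spread widely and DMSO replicate 3 came close to the Rk2 group. The means were 485 ± 47.8 and 562 ± 19.3 CPM (SD, n = 4 each), and the log2FC of 0.21 (SE 0.0700) did not pass the test (edgeR adjusted p = 0.0691). It passed in DESeq2 (adjusted p = 0.0372) and without DMSO replicate 3 (adjusted p = 0.0366), and it did not pass without DMSO replicate 1 (log2FC 0.16, adjusted p = 0.0839). ACLY shares 2.99% of its exon bases with AC125257.2 on the opposite strand.

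ACSS2 (chromosome 20, 34872146 to 34927962, plus strand), which makes acetyl-CoA from acetate, was the least abundant of the 10 genes and the least certain. Its CPM was 9.07, 16.8, 10.3 and 16.6 in the DMSO libraries and 15.2, 12.4, 15.1 and 10.6 in the Rk2 libraries. The Rk2 values fell inside the range of the DMSO values. The means were 13.2 ± 4.09 and 13.3 ± 2.2 CPM (SD, n = 4 each; log2FC 0.0095, SE 0.229, edgeR adjusted p = 0.985), and the 95% interval of the fold, 0.699 to 1.45, includes changes of the size seen in ME1. Its raw counts ran from 171 to 463 per library.

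Among the chain-building enzymes 1 of 3 passed the test. ACACA (chromosome 17, 37084988 to 37406818, minus strand), the acetyl-CoA carboxylase that makes malonyl-CoA, had 87.0, 102, 102 and 102 CPM in the DMSO libraries and 85.9, 91.0, 93.8 and 104 CPM in the Rk2 libraries. The groups overlapped, with replicate 1 the lowest in each. The means were 98.1 ± 7.35 and 93.7 ± 7.75 CPM (SD, n = 4 each), a log2FC of -0.066 (SE 0.0758, edgeR adjusted p = 0.584), with a 95% interval of the fold of 0.847 to 1.08.

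FASN (chromosome 17, 82078333 to 82098332, minus strand), the fatty acid synthase that condenses malonyl-CoA into palmitate, had 444, 565, 569 and 552 CPM in the DMSO libraries and 587, 603, 629 and 612 CPM in the Rk2 libraries. All Rk2 libraries were above all DMSO libraries, and DMSO replicate 1 was far below the other 3. The means were 533 ± 59.6 and 608 ± 17.9 CPM (SD, n = 4 each), and the log2FC of 0.19 (SE 0.0787) did not pass the test (edgeR adjusted p = 0.127). Its adjusted p was 0.0512 to 0.240 with each library left out in turn.

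ELOVL6 (chromosome 4, 110045846 to 110199199, minus strand), the elongase that lengthens palmitate to stearate, had 41.0, 42.6, 39.0 and 43.2 CPM in the DMSO libraries and 47.1, 45.7, 47.5 and 50.8 CPM in the Rk2 libraries. All Rk2 libraries were above all DMSO libraries. The mean was 41.4 ± 1.89 CPM with DMSO and 47.8 ± 2.14 CPM with Rk2 (SD, n = 4 each), and the log2FC was 0.20 (SE 0.0547, edgeR adjusted p = 0.0358) or 1.15-fold with a 95% interval of 1.06 to 1.26. This call was near the threshold and was lost in 7 of 8 fits that left out a library, all but the one without DMSO replicate 4, with adjusted p from 0.0405 to 0.0949; without DMSO replicate 1 it was 0.0588. The FPKM of ELOVL6 did not show the difference, with 24.0 ± 1.13 in the DMSO group and 23.9 ± 1.87 in the Rk2 group (SD, n = 4 each).

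All 3 desaturases rose. SCD (chromosome 10, 100347124 to 100364834, plus strand), the stearoyl-CoA desaturase that makes oleate and palmitoleate, had 909, 1069, 1088 and 1053 CPM in the DMSO libraries and 1296, 1285, 1268 and 1315 CPM in the Rk2 libraries. The 4 Rk2 libraries lay close together, far above the DMSO group, in which replicate 1 was lowest. The mean was 1029.7 ± 81.8 CPM with DMSO and 1291 ± 19.8 CPM with Rk2 (SD, n = 4 each), and the log2FC was 0.33 (SE 0.0578, edgeR adjusted p = 0.00823) or 1.25-fold with a 95% interval of 1.14 to 1.37. Without DMSO replicate 1 the change was 0.27 (adjusted p = 0.00133), and SCD passed the test in all 20 alternative settings tried. A correction for gene length brought the change to 0.17 (edgeR adjusted p = 0.0102).

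FADS1 (chromosome 11, 61799625 to 61829318, minus strand), the delta-5 desaturase of polyunsaturated fatty acids, had 216, 259, 262 and 246 CPM in the DMSO libraries and 311, 298, 300.1 and 304 CPM in the Rk2 libraries. The groups were apart, with DMSO replicate 1 again the lowest. The mean was 246 ± 20.8 CPM with DMSO and 303 ± 5.87 CPM with Rk2 (SD, n = 4 each), and the log2FC was 0.30 (SE 0.0610, edgeR adjusted p = 0.0132) or 1.23-fold with a 95% interval of 1.12 to 1.36. Without DMSO replicate 1 it was 0.25 (adjusted p = 0.00470), and in 3 fits on FPKM it was 0.48 and did not pass (adjusted p = 0.108 to 0.143).

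FADS2 (chromosome 11, 61792980 to 61867354, plus strand), the delta-6 desaturase that acts upstream of FADS1, had 188, 229, 228 and 229.7 CPM in the DMSO libraries and 255, 262, 282 and 269.8 CPM in the Rk2 libraries. The groups were apart, and DMSO replicate 1 lay well below the other 3 DMSO libraries. The mean was 219 ± 20.5 CPM with DMSO and 267 ± 11.5 CPM with Rk2 (SD, n = 4 each), and the log2FC was 0.29 (SE 0.0707, edgeR adjusted p = 0.0268) or 1.22-fold with a 95% interval of 1.09 to 1.37. Without DMSO replicate 1 it was 0.22 (adjusted p = 0.0112), while the call was lost without Rk2 replicate 2, 3 or 4 (adjusted p up to 0.0718) and in 2 of 3 fits on FPKM. FADS1 and FADS2 share 490 exon bases on opposite strands, 4.79% of the exon bases of FADS1 and 4.44% of those of FADS2, so a part of their reads could have been counted for either gene. FADS2 also shares 49 exon bases with FEN1, and FADS1 shares 80 with MIR1908, in each case on the same strand.

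**Figure D2:**
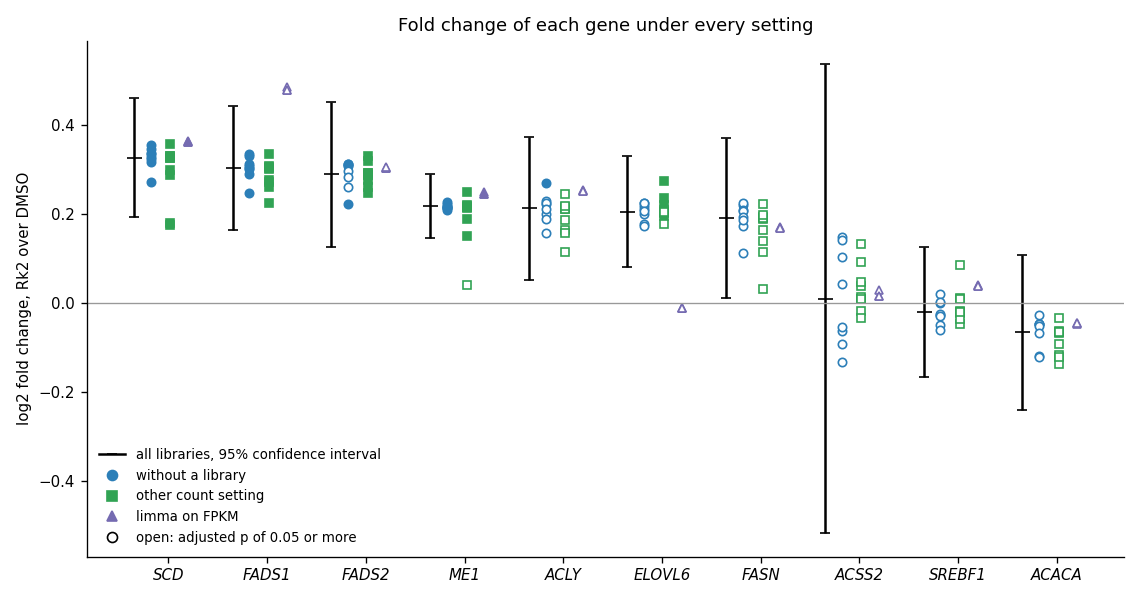
Log2 fold change (log2FC), Rk2 over DMSO (vertical axis), of each gene with all libraries (black bar, 95% confidence interval), in the 8 fits without a library (blue), in other settings on counts (green) and in limma on FPKM (purple), where open symbols mark an adjusted p of 0.05 or more. SCD is filled in all 20 alternatives, ELOVL6 lies near 0 on FPKM (-0.011 to -0.012), and ACSS2 has the widest interval.

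On the FPKM scale, which divides by gene length and so permits levels to be compared between genes, SCD was the most abundant transcript in the DMSO group with 159 ± 14.1 FPKM (SD, n = 4). ACLY (99.4 ± 10.6), FASN (76.9 ± 16.5), FADS2 (72.1 ± 7.15) and FADS1 (54.4 ± 13.3) followed. ME1 had 33.9 ± 0.639 FPKM, ELOVL6 24.0 ± 1.13, ACACA 21.7 ± 4.44, SREBF1 20.2 ± 1.26 and ACSS2 8.88 ± 4.23. The ranges of the DMSO libraries overlapped between ACLY and FASN, FASN and FADS2, FADS2 and FADS1, ELOVL6 and ACACA, and ACACA and SREBF1, so the order within these pairs was not beyond the spread. SCD stood clear of ACLY, FADS1 of ME1, ME1 of ELOVL6, and SREBF1 of ACSS2.

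In the Rk2 group the FPKM was 204 ± 3.44 for SCD, 118 ± 5.68 for ACLY, 88.8 ± 2.80 for FADS2, 85.6 ± 12.8 for FASN and 74.8 ± 8.73 for FADS1 (SD, n = 4 each). ME1 had 40.3 ± 0.919 FPKM, ACACA 21.1 ± 4.33, SREBF1 20.9 ± 2.88 and ACSS2 8.41 ± 1.80. The counts and the FPKM of a gene moved together to a different degree from gene to gene. The ratio of CPM to FPKM would be nearly the same in every library for a fixed gene length, and its highest value was 1.01 times the lowest for SCD and ME1, 1.04 times for ACLY and 1.12 times for FADS2, but 1.47 times for FADS1, 1.74 times for ACACA and 2.83 times for ACSS2. For ELOVL6 this ratio was 1.60 to 1.78 in the DMSO libraries and 1.93 to 2.24 in the Rk2 libraries, which is where the 2 tables diverge for that gene.

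Ratios of 2 genes inside each library, which do not depend on how libraries are scaled, asked whether branches of the pathway shifted against each other. None of the 5 ratios tested passed after Benjamini-Hochberg adjustment. The log2 ratio of SREBF1 to SREBF2 was -2.78 ± 0.113 in the DMSO group and -3.01 ± 0.0701 in the Rk2 group (SD, n = 4 each), and all Rk2 libraries lay below all DMSO libraries, the nearest by a narrow margin (difference -0.23, two-sided exact permutation p = 0.0286, the smallest this design allows, adjusted p = 0.143). The log2 ratio of SCD to FASN was 0.955 ± 0.0531 and 1.09 ± 0.0559, a difference of 0.13 (exact permutation p = 0.0571, adjusted p = 0.143), and DMSO replicate 1 reached into the Rk2 range.

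The log2 ratio of FADS1 to FADS2 was 0.170 ± 0.0485 and 0.184 ± 0.0807, a difference of 0.01 (exact permutation p = 0.943), so no shift between the delta-5 and delta-6 desaturases was detectable. The log2 ratio of ELOVL6 to FASN differed by 0.008 (exact permutation p = 0.943). The log2 ratio of ACSS2 to ACLY, the acetate against the citrate route, differed by -0.17 (exact permutation p = 0.514), with an SD of 0.451 in the DMSO group.

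**Figure D3:**
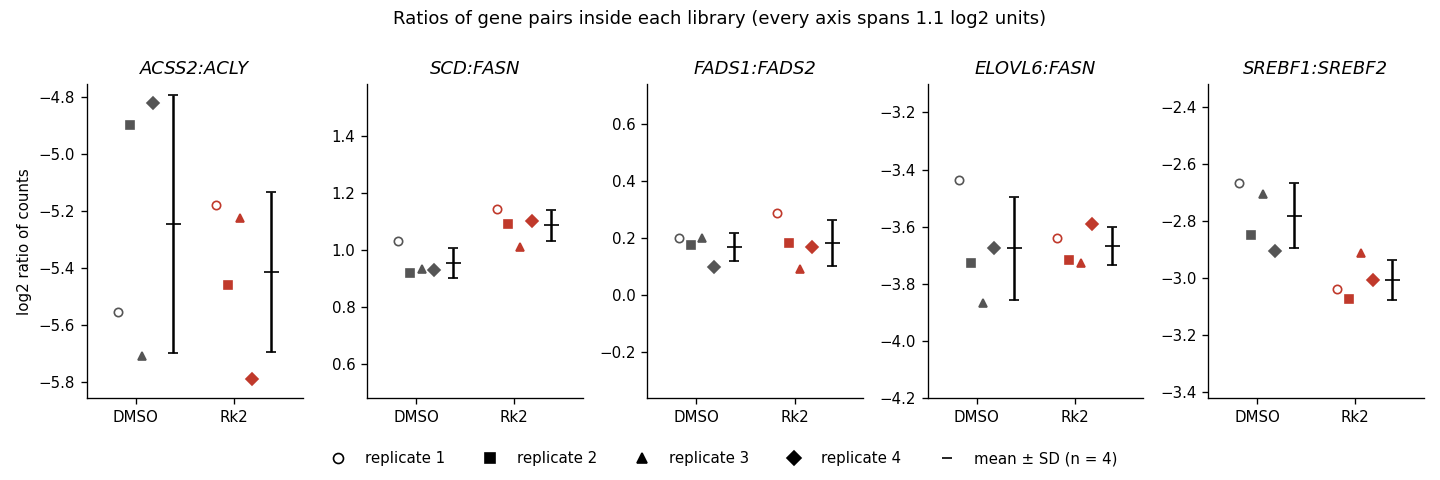
Log2 ratio of the counts of 2 genes inside each library (vertical axes, each spanning 1.1 log2 units) in the DMSO group (grey) and the Rk2 group (red), with a point for each library and the mean ± SD (n = 4). In the panel of SREBF1 to SREBF2 every Rk2 point lies below every DMSO point, and in the panel of FADS1 to FADS2 the groups overlap.

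The neighbouring steps of the pathway were read from 4 lists compiled by hand, with 53 of their 55 genes tested (THRSP and ELOVL3 had too few counts or no row). Of these 53, 11 rose and 3 fell, and their median log2FC was 0.02. Among all tested genes 11.0% rose and 7.23% fell. The most members moved in the list of acyl-CoA activation and triglyceride assembly, where 7 of 14 rose, 0 fell and the median was 0.22. PNPLA3, a lipid droplet protein, had 7.27, 10.3, 8.53 and 9.19 CPM in the DMSO libraries and 16.0, 13.1, 14.9 and 17.1 CPM in the Rk2 libraries. The groups were apart, and the log2FC was 0.79 (SE 0.125, edgeR adjusted p = 0.00521).

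LPIN1 and LPIN2, phosphatidate phosphatases that form diacylglycerol, rose by 0.65 (9.74 ± 0.559 to 15.3 ± 1.09 CPM, SD, n = 4 each, edgeR adjusted p = 0.00173) and 0.51 (151 ± 15.0 to 216 ± 10.5 CPM, edgeR adjusted p = 0.00401) on the log2 scale. GPAM, which begins glycerolipid synthesis, rose by 0.55 (20.8 ± 3.08 to 30.5 ± 3.27 CPM, SD, n = 4 each, edgeR adjusted p = 0.0188), though not without Rk2 replicate 4 (adjusted p = 0.0526). The acyl-CoA synthetases ACSL4 (0.38, adjusted p = 0.0120) and ACSL1 (0.27, adjusted p = 0.0460) and the lipid droplet coat protein PLIN2 (0.20, adjusted p = 0.00822) also rose in edgeR. The calls of LPIN1 and GPAM were lost in the fits on FPKM, and that of ACSL4 after the joint correction for gene length and GC content. The call of ACSL1 was lost in 7 of 8 fits without a library, all but the one without Rk2 replicate 3. DGAT2, which completes triglycerides, had a log2FC of -0.42 (edgeR adjusted p = 0.150), and ACSL5 had -0.09 (adjusted p = 0.459).

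Among the SREBP escort factors and other lipogenic regulators 3 of 13 tested genes rose, 0 fell and the median was 0.08. INSIG1, the endoplasmic reticulum protein that retains SREBPs and is itself an SREBP target, had 48.0, 52.5, 55.8 and 49.1 CPM in the DMSO libraries and 152, 156, 145 and 101 CPM in the Rk2 libraries. Rk2 replicate 4 was lower than the other 3 Rk2 libraries but still well above the DMSO group. The log2FC was 1.43 (SE 0.136, edgeR adjusted p = 7.71e-04), and with each library left out in turn it stayed between 1.37 and 1.56.

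SREBF2, which encodes SREBP-2, had a mean of 337 ± 19.4 CPM in the DMSO group and 389 ± 6.44 CPM in the Rk2 group (SD, n = 4 each; log2FC 0.20, SE 0.0464, edgeR adjusted p = 0.0209). Its call was lost without Rk2 replicate 2, 3 or 4 (adjusted p = 0.0548 to 0.0617) and in the fits on FPKM. MLXIPL, the carbohydrate-responsive factor ChREBP, rose from 1.33 ± 0.673 to 3.07 ± 0.727 CPM (SD, n = 4 each; log2FC 1.19, edgeR adjusted p = 0.0435), with as few as 17 raw counts in a library, and its call was lost in 7 of 8 fits without a library, all but the one without DMSO replicate 4. NR1H3, the liver X receptor alpha, had a log2FC of -0.22 (edgeR adjusted p = 0.118) and NR1H2 had -0.13 (adjusted p = 0.240).

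Of the other synthesis, elongation and desaturation genes 1 of 15 rose and 1 fell, with a median of 0.02. These counts are near the shares of all tested genes (11.0% higher and 7.23% lower). FADS3, a relative of FADS1 and FADS2, rose by 0.23 on the log2 scale (56.2 ± 4.06 to 65.7 ± 3.22 CPM, SD, n = 4 each, edgeR adjusted p = 0.0429), although its groups overlapped and 7 of 8 fits without a library, all but the one without DMSO replicate 1, lost the call. ELOVL1, the elongase of very long chains, fell by 0.27 (115 ± 7.69 to 95.2 ± 7.99 CPM, SD, n = 4 each, edgeR adjusted p = 0.0387), and 6 of 8 such fits lost the call, all but those without DMSO replicate 2 or Rk2 replicate 1. ELOVL4, with 8 to 25 raw counts per library, had a log2FC of 0.81 (edgeR adjusted p = 0.110) and MCAT had -0.25 (adjusted p = 0.101).

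In the list of citrate and NADPH supply, 0 of 11 rose, 2 fell and the median was -0.08. PGD, an NADPH-yielding dehydrogenase, had 531, 522, 526 and 499 CPM in the DMSO libraries and 444, 458, 451 and 437 CPM in the Rk2 libraries. The groups were apart, with a log2FC of -0.22 (SE 0.0344, edgeR adjusted p = 0.00546), which was not past the threshold on FPKM. CS, the citrate synthase, had a log2FC of 0.54 (edgeR adjusted p = 0.367), which came from Rk2 replicate 2 with 230 CPM. Rk2 replicates 1, 3 and 4 had 73.0, 71.9 and 79.8 CPM, and the DMSO libraries had 75.0 to 83.8 CPM. IDH1 had a log2FC of 0.12 (edgeR adjusted p = 0.543).

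**Figure D4:**
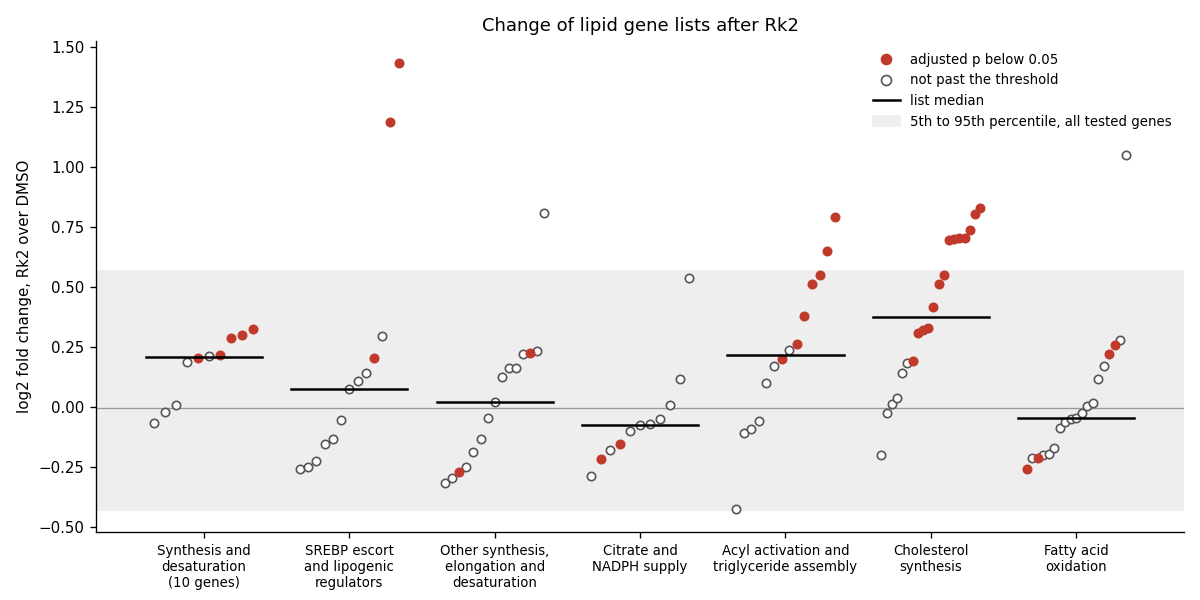
Log2 fold change (log2FC), Rk2 over DMSO (vertical axis), of each tested gene in the 10 genes and in 6 related lists, where filled points have an adjusted p below 0.05, black lines are list medians and the grey band spans the 5th to the 95th percentile of all tested genes. The 10 genes lie inside the band, from -0.066 to 0.33, while cholesterol synthesis genes reach 0.83 and INSIG1 1.43.

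The genes of cholesterol synthesis, known targets of SREBP-2, are set beside them. Of these 20 genes 14 rose, 0 fell, the median log2FC was 0.37 and 7 of the 14 exceeded 1.5 fold, whereas the 10 fatty acid genes had a median of 0.21 and 0 beyond 1.5 fold. The difference between these lists was not tested. Among all tested genes 11.0% rose, 7.23% fell and 2.46% rose beyond 1.5 fold. MSMO1 (0.83, edgeR adjusted p = 5.24e-05) and CYP51A1 (0.71, adjusted p = 5.82e-05), both sterol demethylation enzymes, had the lowest p-values of the list. PMVK, a kinase of the mevalonate pathway, had a log2FC of -0.20 (edgeR adjusted p = 0.0586).

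Fatty acid oxidation, the opposing route, showed 2 of 19 tested genes higher and 2 lower, with a median of -0.05. These counts are near the shares of all tested genes (11.0% higher and 7.23% lower). CPT2, of the mitochondrial carnitine shuttle, fell from 43.0 ± 1.34 to 36.0 ± 1.75 CPM (SD, n = 4 each; log2FC -0.26, edgeR adjusted p = 0.0139), and its partner CPT1A rose from 141 ± 11.2 to 165 ± 5.05 CPM (0.22, edgeR adjusted p = 0.0390). ETFDH rose by 0.26 (adjusted p = 0.0403) and ECHS1 fell by 0.21 (adjusted p = 0.0373) in edgeR. The calls of CPT1A and ETFDH were lost in 7 of 8 fits without a library, all but the one without DMSO replicate 1, and that of ECHS1 in all 8, while that of CPT2 was lost in none of the 8 but was lost on FPKM.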

How the data were processed

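The authors made HuH7 libraries from 250 ng of total RNA per sample (MGIEasy RNA Library Prep Kit) and ran them on a BGISEQ-500 instrument. The submitters' processing notes name FastQC 0.11.5, HISAT2 2.2.1, StringTie 1.3.3 and the build hg38, and the annotation, the read counter and its strand setting are not given in the sources used here. The authors deposited raw counts per gene, without normalization, and FPKM, scaled for gene length and library size. Among the counted genes 22 symbols had been turned into dates (0.111% of counts), stayed in library sizes and were not assigned to genes.

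The 10 genes and all lists were chosen with earlier results of these data known. Genes reaching 10 counts in 4 or more libraries were TMM-scaled and fitted with edgeR 4.0.16 (robust quasi-likelihood, condition as the only term, Benjamini-Hochberg over 12928 genes) in R 4.3.3. Fits without a library required 10 counts in 3 libraries. Standard errors were the log2 fold change divided by the square root of F. Groups were taken from the labels. Within-library ratios used counts plus 0.5 and a two-sided exact permutation test. The alternatives were DESeq2 1.42.0, upper-quartile scaling, library size only, no filter, at least 50 counts in every library, limma 3.58.1 on log2(FPKM + 1) or log2(FPKM + 0.1) filtered at a mean of 0.5 FPKM or unfiltered, sample-weighted voom, a block for the replicate number, a loess correction for gene length (span 0.5) and each library left out. A correction for gene length and GC content was chosen after seeing the data. Named genes were the 10, and in each list those called and the 2 lowest p-values in each direction, of which a selection is printed, and some genes of the lists are not reported here. The chi-square per degree of freedom between 2 libraries of a group, which counting error alone would bring to about 1, was 16.6 to 30.1. The edgeR steps were tested on simulated data. In these, 2 of 106 genes with a log2 change of 0.3 were found, and 65 of 94 with a change of 1. Only these genes, drawn at random at any abundance, were changed among 12814, whereas 2351 of 12928 were called in the data. The adjusted threshold was thus stricter in the simulation. Its shares do not measure how often such changes would be found in the 10 genes. A gene not past the threshold may still have changed by the small amounts described here.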

Additional observations from a re-analysis of the deposited data

Results flagged for a closer look

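In 4 of 30 groups of 4 values examined, 1 library lay farther from the other 3 than Dixon's test allows at the 95% level, and in all 4 it was DMSO replicate 1. Chance alone gives about 1 in 20 for independent groups. These 30 share the same libraries, and the ratios reuse the genes, so 4 of 30 cannot be set against that rate. For ACACA DMSO replicate 1 had 87.0 CPM and the other 3 had 102 each. For FASN it had 444 CPM, against 552 to 569 in the others. For FADS2 it had 188 CPM, against 228 to 229.7. Its log2 ratio of SCD to FASN was 1.03, against 0.920 to 0.934. All of these lie in the DMSO group, so the differences of FASN and FADS2 from the Rk2 group are larger with this library than without it (0.19 and 0.11 for FASN, 0.29 and 0.22 for FADS2 on the log2 scale), and that of ACACA moved from -0.066 to -0.12. Why this library differs was not tested.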

How the results depend on the processing

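Across all genes 2351 were called, and 1290 to 2268 with each library left out. limma on FPKM called 1077 with log2(FPKM + 1), 1011 with log2(FPKM + 0.1) and 1300 without a filter. Of the called genes 60.2% were higher with Rk2, 48.9% under upper-quartile scaling, 70.6% with library size only, 50.8% after the length correction, 49.7% after the length and GC correction, and 74.6%, 75.3% and 69.3% in these FPKM fits. Fold changes also rose with gene length across genes (rho = 0.388), a description. Of the 10 genes, 5 were called, 2, 2 and 3 in the FPKM fits, 6 in DESeq2 and 3 to 5 with a library left out. The related lists fell from 14 calls to 6, 6 and 6 in the FPKM fits and to 8 to 12 with a library left out, 9 without DMSO replicate 3, 9 without Rk2 replicate 2 and 8 without Rk2 replicate 4. The cholesterol genes had 11 to 17 calls over all alternatives. After the length correction SCD was 0.17, FADS1 0.22, FADS2 0.28, ELOVL6 0.27 and ME1 0.15, all still called. Of the genes not called, FASN went from 0.19 to 0.030 (edgeR adjusted p = 0.741) and ACLY from 0.21 to 0.11 (adjusted p = 0.209). ACACA was -0.14 (adjusted p = 0.172) and ACSS2 0.091 (adjusted p = 0.843) after this correction. After the length and GC correction ME1 was 0.040 (adjusted p = 0.417). ELOVL6 was lost under upper-quartile scaling (adjusted p = 0.0593). In the 3 FPKM fits ELOVL6 turned to -0.011, -0.012 and -0.011, and SREBF1 to 0.038, 0.039 and 0.038. SREBF1 was 0.011 with library size only, 0.0083 after the length correction, 0.085 after the length and GC correction and -0.060 to 0.019 with a library left out. ACSS2 was -0.018 under upper-quartile scaling, -0.033 in voom and -0.13 to 0.15 with a library left out. Ratios of FPKM gave -0.16 for SREBF1 to SREBF2 (p = 0.371, exact permutation) and -0.18 for ELOVL6 to FASN. With a library left out these ratios were -0.27 to -0.19 and -0.056 to 0.088, and FADS1 to FADS2 was -0.021 to 0.045; such designs cannot reach an exact p below 0.0571. The cause of these shifts was not tested. Replicate numbers did not pair the libraries (correlations of same-numbered libraries from -0.00945 to 0.0845). With the replicate block 1814 genes and 4 of the 10 were called, ELOVL6 being lost (adjusted p = 0.0608), and the paired ratio of SREBF1 to SREBF2 stayed at -0.23 (exact permutation p = 0.125, the smallest that 4 pairs allow). Depth limits genes near the count filter, such as ELOVL4 (8 to 25 raw counts per library) and MLXIPL (17 to 74).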

Other observations

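APOB, the protein that packages triglycerides and cholesteryl esters into secreted lipoproteins, was in the marker list of hepatocytes, is a lipid gene outside the lists above and was chosen after its values were seen. It had 863, 1023, 1039.9 and 1298 CPM in the DMSO libraries and 1485, 1672, 1527 and 1778 CPM in the Rk2 libraries. The groups were apart, though the DMSO libraries were spread widely, and APOB rose by 0.61 on the log2 scale (SE 0.120, edgeR adjusted p = 0.0124). No result of the alternative settings, the length correction among them, is given for the hepatocyte markers. How far the change of APOB depends on the processing is therefore not shown. The other hepatocyte marker that passed the test upward or downward was FGB, a fibrinogen chain, with a log2FC of -0.27 (edgeR adjusted p = 0.0462), while ALB had 0.01 (adjusted p = 0.844).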
